A study of Mus musculus with 7 samples.

Results

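The 8 genes described here, Acan, Bcan, Ncan, Vcan, Hapln1, Hapln4, Tnr and Ptprz1, encode components of the brain's extracellular matrix and of the perineuronal nets, and were taken by name from the 19614 genes listed in the count tables. All 8 had a row in each of the 7 libraries. Single cells were captured from the ventromedial prefrontal cortex (PFC) and from the motor cortex (MC) of B6129SF1/J mice at postnatal day 30, kept in 12 h of light and 12 h of dark, and read with the 10x Genomics 3' V2 chemistry. In the DTA mice (Opn4-Cre/+; Brn3b-zDTA/+), Opn4-driven Cre switched on diphtheria toxin A from the Brn3b locus. Intrinsically photosensitive retinal ganglion cells (ipRGCs) are the melanopsin neurons that carry light information from the eye to the brain. The toxin targets those ipRGCs that express Brn3b. The CTRL mice (Opn4-Cre/+; Brn3b-+/+) carried the same Opn4-Cre allele without the toxin allele and kept these cells. There were 1 MC DTA, 1 MC CTRL, 3 PFC DTA and 2 PFC CTRL libraries. The design asks how cortical cells of DTA mice differ from those of CTRL mice, and it also allows a comparison of the 2 cortical areas. The ablated cells are in the retina and none was sampled, so the libraries hold no check of the ablation.

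Perineuronal nets are lattices of matrix that wrap the soma and proximal dendrites of certain neurons, above all fast-spiking parvalbumin interneurons, and that form as postnatal critical periods close. Their scaffold is hyaluronan, to which the lecticans aggrecan (Acan), brevican (Bcan), neurocan (Ncan) and versican (Vcan) attach. Link proteins such as Hapln1 and Hapln4 (Bral2) fasten lecticans to hyaluronan, tenascin-R (Tnr) cross-links lecticans at their other end, and Ptprz1 is a receptor tyrosine phosphatase whose secreted form, phosphacan, binds tenascins and is itself a matrix proteoglycan. The loose matrix between cells is built from the same families, and glia supply much of it.

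The tables held 2373 MC DTA, 6229 MC CTRL, 12568 PFC DTA and 11815 PFC CTRL cells, the numbers that the series' design text states, and 6180059 to 30972905 unique transcript counts (UMIs) per library. The libraries differed in depth: the median excitatory neuron had 11603 to 15843 UMIs in MC DTA, PFC DTA 2 and PFC CTRL 1, the deep set, and 3572 to 5433 in the other 4, the shallow set. Any 2 libraries shared barcodes amounting to 0.362% to 1.498% of the smaller one. Cells were clustered without the 8 genes, and clusters were named from marker lists, so each class name stands for cells like that type. Every marker of the 7 main classes was detected in every library in its class. An unnamed remainder of 3583 cells, 2330 of them in PFC DTA 3, was left out. Levels are counts summed over a class in a library, scaled to the total UMIs of that class as CPM, and p-values measure only the spread between libraries.

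Acan, Vcan, Tnr and Ptprz1 had their highest level among the 7 main classes in oligodendrocyte precursors, and did so in 7 of 7 libraries. Bcan and Hapln1 averaged highest in astrocytes, Ncan in precursors and astrocytes alike, and Hapln4 in inhibitory and excitatory neurons. Neighbouring classes in each gene's order were compared by an exact two-sided sign-flip permutation test paired by library. Of 48 neighbouring pairs, 18 passed the Benjamini-Hochberg adjusted threshold of 0.05, each with all 7 libraries in 1 direction and the same adjusted p = 0.0417 (exact p = 0.0156, the smallest that 7 libraries can give). With means over cells in place of summed counts none of the 48 passed, the smallest adjusted p being 0.05 for the 15 pairs that ran in 1 direction in every library.

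**Figure D1:**
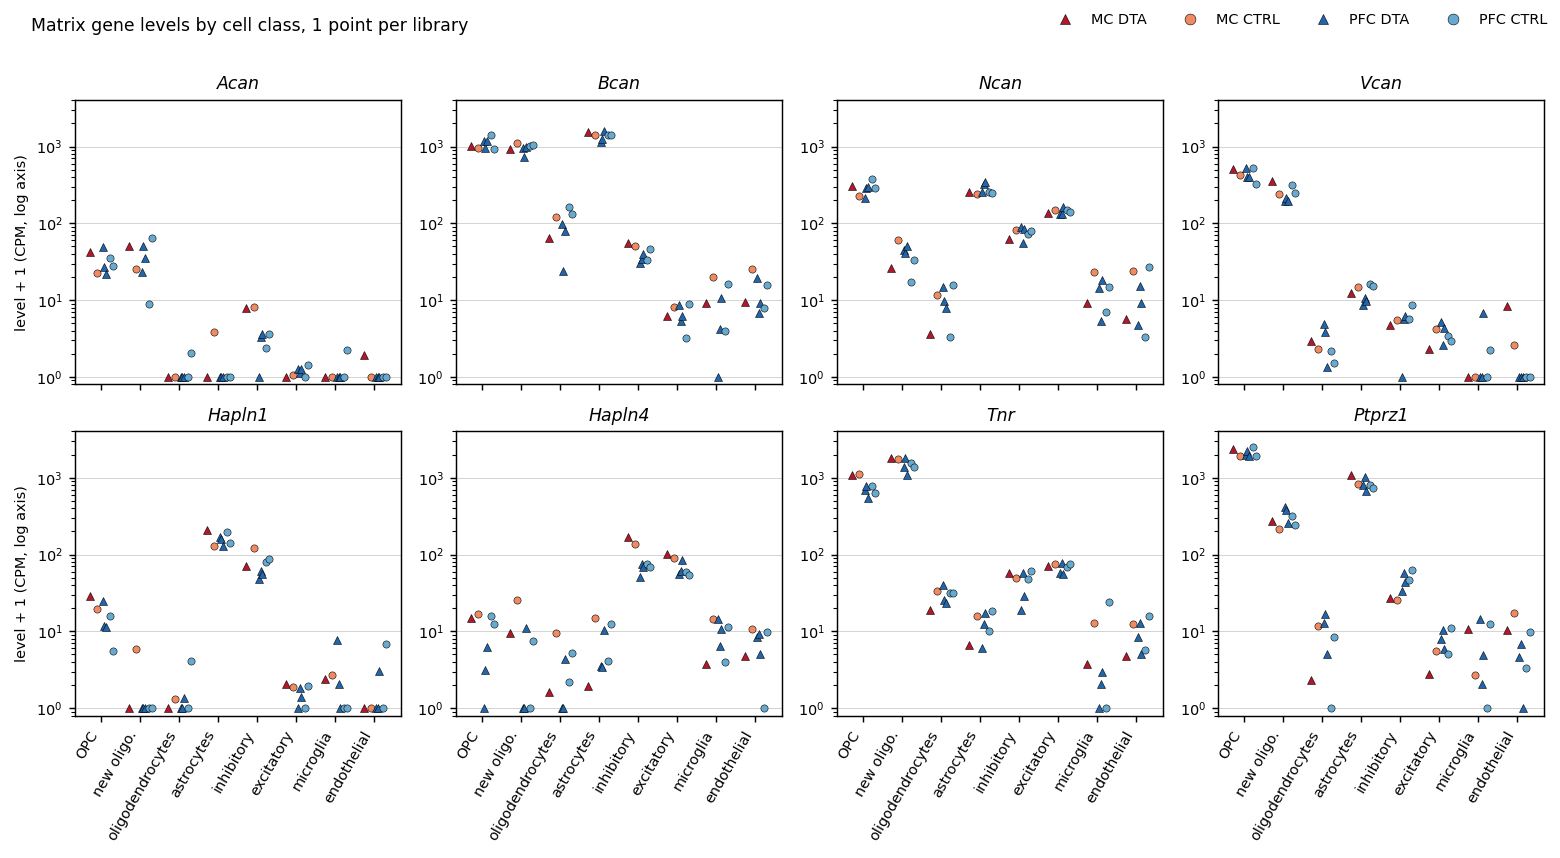
Level of each of the 8 genes in 8 cell classes, as CPM + 1 on a log axis, with 1 point for each library. Triangles are DTA and circles CTRL libraries, in reds for MC and blues for PFC, CTRL in the paler shade. Acan, Vcan, Tnr and Ptprz1 stand highest in the oligodendrocyte lineage, Hapln1 in astrocytes, and Hapln4 in the 2 neuron classes.

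Acan, which encodes the lectican that is the common marker of perineuronal nets, was a low-count gene, with 64 UMIs in 1256 precursors. Its level in precursors was lowest at 20.8, had a median of 27.1 and was highest at 47.7 CPM, against 0, 2.64 and 7.27 CPM in inhibitory neurons. The 2 classes did not overlap, and precursors were higher in 7 of 7 libraries (adjusted p = 0.0417, exact sign-flip permutation test). Astrocytes, microglia, excitatory neurons, oligodendrocytes and endothelial cells averaged at most 0.399 CPM each and could not be ordered. The 3' end of Acan lies 2 bases from that of Hapln3 on the opposite strand, and the sources used here do not say whether reads were counted by strand.

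Vcan, the lectican of the developing brain and of the nodes of Ranvier, had 328, 425 and 528 CPM (lowest, median and highest library) in precursors. In astrocytes, the next class, the lowest, median and highest library had 7.60, 11.3 and 15.3 CPM. Every library thus had Vcan higher in precursors, and the mean log2 difference was 5.16 (adjusted p = 0.0417, exact sign-flip permutation test). Neurons held 2.57 ± 1.05 CPM if excitatory and 4.37 ± 2.28 CPM if inhibitory (SD, n = 7 libraries each).

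Bcan, the lectican of the mature brain's perisynaptic matrix, had 1158, 1400 and 1590 CPM in astrocytes as the lowest, median and highest library. Precursors had 938, 1024 and 1428 CPM. The ranges overlapped, and precursors were higher than astrocytes in PFC DTA 1 and PFC CTRL 1, so the order of the 2 classes was not settled (adjusted p = 0.143, exact sign-flip permutation test). Oligodendrocytes averaged 95.8 ± 45.4 CPM and inhibitory neurons 40.3 ± 9.60 CPM, while excitatory neurons averaged 5.63 ± 2.06 CPM (SD, n = 7 libraries each).

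Ncan, the lectican most abundant in the juvenile brain, was the member with the broadest distribution. Its lowest, median and highest levels were 215, 292 and 372 CPM in precursors and 237, 257 and 342 CPM in astrocytes, which overlapped over most of their range (adjusted p = 0.851, exact sign-flip permutation test). Excitatory neurons, at 142 ± 12.2 CPM, were below astrocytes and above inhibitory neurons, at 74.0 ± 12.4 CPM, in 7 of 7 libraries (adjusted p = 0.0417 for each step, exact sign-flip permutation test). Among the 4 lecticans it was the one that excitatory neurons held at a level above that of inhibitory neurons in each library.

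The link protein gene Hapln1 had 129, 161 and 206 CPM (lowest, median and highest) in astrocytes and 47.4, 70.6 and 121 CPM in inhibitory neurons. Each library had more in astrocytes than in inhibitory neurons, and more in inhibitory neurons than in precursors, which averaged 15.8 ± 8.13 CPM (adjusted p = 0.0417 for each step, exact sign-flip permutation test). Excitatory neurons averaged 0.586 ± 0.4498 CPM of Hapln1. Hapln4, the other link protein, had 50.3, 73.2 and 167 CPM in inhibitory neurons and 53.7, 59.6 and 102 CPM in excitatory neurons. These 2 classes overlapped (adjusted p = 0.268), and excitatory neurons stood above the next class, precursors at 8.97 ± 6.42 CPM, in 7 of 7 libraries (adjusted p = 0.0417, exact sign-flip permutation test).

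Tnr, whose product cross-links lecticans, had 543, 783 and 1107 CPM (lowest, median and highest) in precursors and 54.0, 70.7 and 76.5 CPM in excitatory neurons. Precursors were higher in all 7 libraries, and excitatory neurons were in turn above inhibitory neurons, at 44.9 ± 16.0 CPM, in all 7 (adjusted p = 0.0417 for each step, exact sign-flip permutation test). Ptprz1 had 1905, 1979 and 2543 CPM in precursors and 668, 814 and 1081 CPM in astrocytes, with no overlap between them and none between astrocytes and inhibitory neurons, at 41.8 ± 14.8 CPM (adjusted p = 0.0417 for each step). In microglia, taken here as the class for background, the mean levels ran from 0.182 CPM for Acan to 12.2 CPM for Ncan, and a level of that size in another class cannot be told from free RNA.

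The oligodendrocyte lineage separated the 8 genes further. Newly formed oligodendrocytes, 443 cells that lie between precursors and myelinating cells, were too few in MC DTA (26 cells) for the class tests, so the values along the lineage are a description. Tnr averaged 800 ± 214 CPM in precursors, 1527 ± 263 CPM in newly formed oligodendrocytes and 28.2 ± 6.99 CPM in oligodendrocytes (SD, n = 7 libraries each). Its highest stage was therefore the middle one, which exceeded the precursors of the same library in 7 of 7 libraries.

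The other members of the lineage had their steps elsewhere. Ptprz1 averaged 2124 ± 254, 299 ± 76.0 and 7.32 ± 5.88 CPM over the same stages in that order, with most of the difference already between the first and second. Ncan likewise averaged 285 ± 52.7, 38.2 ± 14.8 and 8.55 ± 4.95 CPM. Bcan averaged 1092 ± 179, 970 ± 126 and 95.8 ± 45.4 CPM, and Vcan 443 ± 75.4, 251 ± 60.4 and 1.73 ± 1.29 CPM, so both lost most of their level between newly formed and mature cells. Acan averaged 31.3 ± 10.2 CPM in precursors and 36.3 ± 19.6 CPM in newly formed cells, and 2 UMIs were counted in 2001 oligodendrocytes.

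The promoters of the 4 genes that were highest in precursors in every library are shown because these genes shared their highest class. RefSeq's table for GRCm38.p6 gives the 250 bases before the start of each gene, at chr7:79052976-79053225 (+) for Acan, chr13:89742513-89742762 (-) for Vcan, chr1:159523519-159523768 (+) for Tnr and chr6:22875252-22875501 (+) for Ptprz1. The window of Acan ends outside the gene's GENCODE transcripts, so its start differs between the annotations. Capitals mark matches on either strand to 4 motifs. The E-box was searched for as CAGCTG throughout each window. The core of the site that SOX proteins bind was searched for as ACAAAG in the same way. The motif of the GC box, which Sp1 family proteins recognise, was GGGCGG here. For the TATA box, which lies upstream of many starts, the letters were TATAAA in every search. None of the 4 motifs contains another, though copies of 1 motif may overlap.
Acan: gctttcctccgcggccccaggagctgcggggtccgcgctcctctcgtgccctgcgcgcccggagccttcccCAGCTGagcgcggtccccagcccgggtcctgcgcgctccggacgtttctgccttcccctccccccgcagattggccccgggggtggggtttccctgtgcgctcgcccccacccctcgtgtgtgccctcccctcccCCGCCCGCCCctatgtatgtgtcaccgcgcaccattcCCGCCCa
Vcan: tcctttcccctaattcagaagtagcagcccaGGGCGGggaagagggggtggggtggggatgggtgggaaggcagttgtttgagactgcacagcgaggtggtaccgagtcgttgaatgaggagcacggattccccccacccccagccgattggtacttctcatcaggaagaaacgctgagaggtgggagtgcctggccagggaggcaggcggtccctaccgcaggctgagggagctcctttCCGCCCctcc
Tnr: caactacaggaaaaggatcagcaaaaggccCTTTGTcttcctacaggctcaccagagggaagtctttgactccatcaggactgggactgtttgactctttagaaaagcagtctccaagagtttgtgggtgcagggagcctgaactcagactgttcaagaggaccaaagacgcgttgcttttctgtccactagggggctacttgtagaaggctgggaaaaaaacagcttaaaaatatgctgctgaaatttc
Ptprz1: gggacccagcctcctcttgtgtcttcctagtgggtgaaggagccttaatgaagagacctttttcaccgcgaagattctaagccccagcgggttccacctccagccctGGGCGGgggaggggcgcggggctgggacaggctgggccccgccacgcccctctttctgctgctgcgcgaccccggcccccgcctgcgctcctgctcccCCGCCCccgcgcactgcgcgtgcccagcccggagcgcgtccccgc
The GC content was 74.4% for Acan, 71.6% for Ptprz1 and 62.4% for Vcan, against a median of 52.4% over 32851 mouse promoter windows of the same length. Tnr, at 46.8%, was below that median. Acan held 3 GC boxes and 1 E-box, Vcan 2 GC boxes, Ptprz1 2 GC boxes and Tnr 1 SOX core. Among all windows 32.7% held a GC box, 16.5% the SOX core, 13% the E-box and 12.4% the TATA box, so no motif was common to the 4 genes. These are matches of letters and not binding sites.

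The lecticans lie beside link protein genes in the mouse genome (GRCm38, GENCODE M21), with 0 protein-coding genes between the members of each pair. Ncan (chr8:70093085-70120873, minus strand) and Hapln4 (chr8:70083457-70090862, plus strand) are 2.2 kb apart. Vcan (chr13:89655312-89742509, minus strand) and Hapln1 (chr13:89539796-89611652, plus strand) are 43.7 kb apart, Bcan (chromosome 3) is 21.5 kb from Hapln2, and Acan (chromosome 7) is 2 bases from Hapln3. Neighbours varied in how alike their class profiles were. Over 17 classes and subclasses the Pearson correlation of mean log2(CPM + 1) was 0.46 for Ncan with Hapln4 and 0.43 for Vcan with Hapln1. It was 0.20 for Bcan with Hapln2 and 0.78 for Acan with Hapln3. Hapln4 had its highest correlation among the members with Ncan, whereas Vcan was closer to Ptprz1 than to Hapln1. Among the 8 genes the highest correlations were 0.83 for Bcan with Ptprz1 and 0.77 for Vcan with Ptprz1, and the lowest was -0.49 for Bcan with Hapln4. The classes share libraries, and the correlations describe these data without a test.

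Across 11190 genes, the profiles nearest to each member were found by the same correlation over the 17 units. Acan was nearest to C1ql1 (0.90) and Neu4 (0.85), both markers of the oligodendrocyte lineage, and to Fip1l1 (0.83). Bcan was nearest to Efs (0.94), Aldh6a1 (0.93) and Gpr37l1 (0.92), and Ncan was near to Dclk1 and Gria2 (0.94 each). Hapln1 was nearest to Ddr2 (0.96), Nfyc (0.93) and Egfr (0.90), and Hapln4 to Ndst3 and Arfgef1 (0.96 each). Vcan was nearest to Gm7932 (0.91), Zfp207 and Sapcd2 (0.89 each), Tnr to Mb21d2 (0.89), Scfd2 and Slx4ip (0.88 each), and Ptprz1 to Fam69c (0.96), Pou2f1 (0.95) and Sdf2 (0.94).

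Within inhibitory neurons the mean levels of the 8 genes peaked in different subclasses, and the step below the highest subclass passed the test for Bcan, Hapln1, Tnr and Ptprz1. Pvalb-like cells had the highest mean of Acan, Bcan, Hapln4 and Tnr, Lamp5-like cells that of Hapln1, Vcan and Ncan, and the subclass led by Vip and Cxcl14 that of Ptprz1. Of 24 neighbouring pairs of subclasses, 9 passed the sign-flip test, again each with all 7 libraries in 1 direction (adjusted p = 0.0417, exact permutation test). With means over cells 0 of the 24 passed, the smallest adjusted p being 0.0625.

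**Figure D2:**
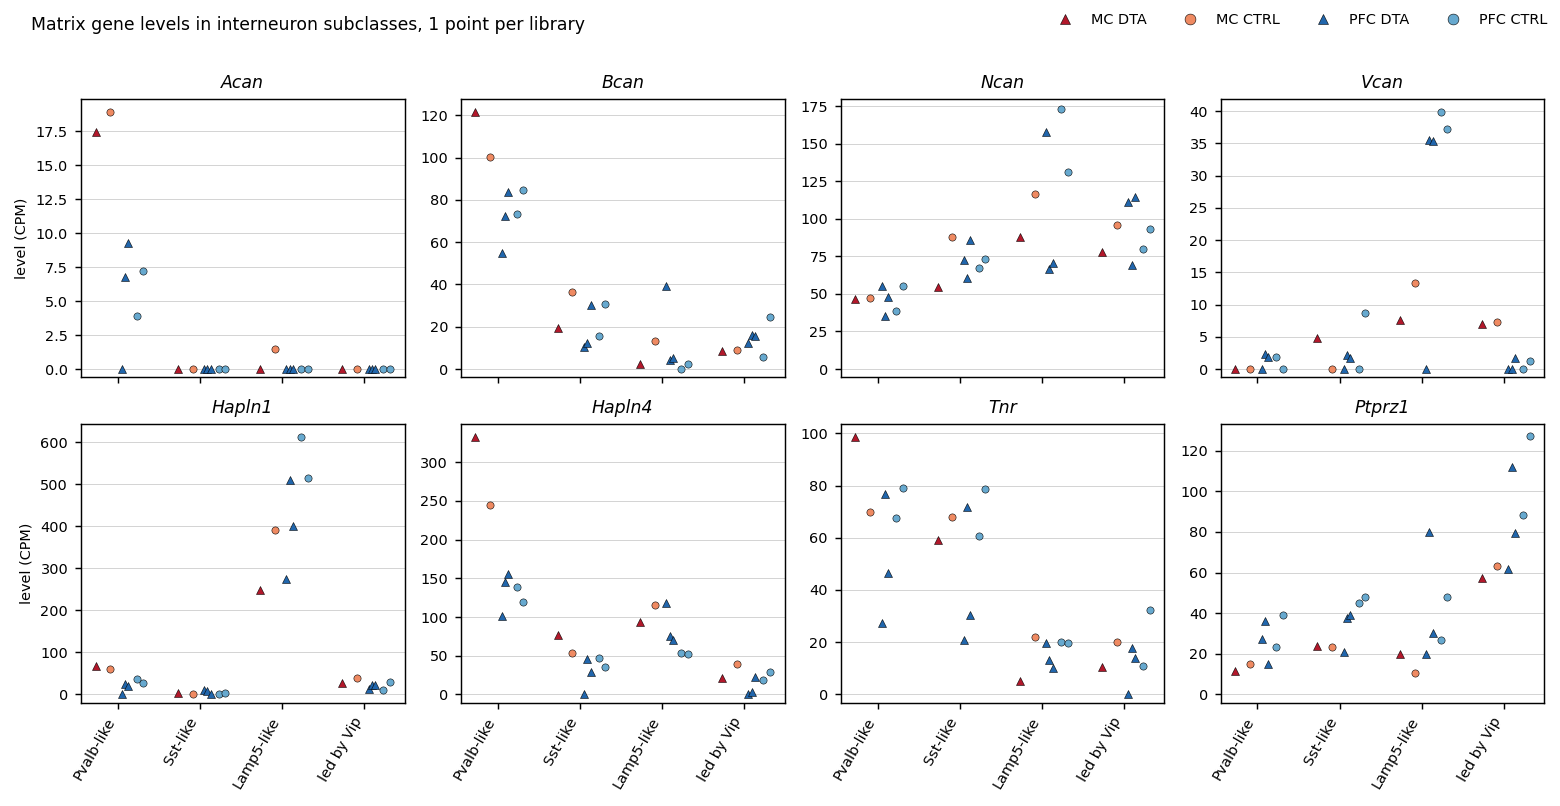
Level of each of the 8 genes in 4 subclasses of inhibitory neurons, in CPM on linear axes that start near 0, with 1 point for each library. Triangles are DTA and circles CTRL libraries, in reds for MC and blues for PFC, CTRL in the paler shade. Of 61 Acan UMIs in these subclasses 60 are in Pvalb-like cells, Hapln1 is highest in Lamp5-like cells, and in Pvalb-like cells both MC points of Hapln4 lie above every PFC point.

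Acan in Pvalb-like cells was 17.4 CPM in MC DTA, 18.9 CPM in MC CTRL, 0, 6.78 and 9.28 CPM in the 3 PFC DTA libraries and 3.87 and 7.18 CPM in the 2 PFC CTRL libraries. These 60 UMIs compare with 1 UMI in Lamp5-like cells, 0 in 713 Sst-like cells, which allows up to 0.717 CPM, and 0 in the 832 cells led by Vip and Cxcl14, which allows up to 0.863 CPM. Pvalb-like cells exceeded Lamp5-like cells in 6 of 7 libraries, the exception being PFC DTA 1 with 38 Pvalb-like cells and 0 UMIs in both (adjusted p = 0.0577, exact sign-flip permutation test). The Pvalb-like values, up to 18.9 CPM, were below those of precursors, which started at 20.8 CPM, but this pair was not tested. The 0 UMIs of PFC DTA 1 allow up to 27.5 CPM in its Pvalb-like cells. In MC CTRL the 18.9 CPM rested on 20 UMIs and the 21.9 CPM of precursors on 7 UMIs. Among cells with at least 1000 UMIs, each thinned to 1000, 1.02% to 6.90% of precursors had an Acan UMI. So did 0% to 1.33% of such Pvalb-like cells and 0% to 0.231% of such microglia. Unthinned, the shares were 2.91% to 10.9% of precursors, 0% to 20.3% of Pvalb-like cells and 0% to 0.172% of microglia, at median depths of 848 to 3219, 1910 to 12813 and 1006 to 3226 UMIs.

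Bcan was 84.4 ± 21.5 CPM in Pvalb-like cells and 22.1 ± 10.3 CPM in Sst-like cells, with Pvalb-like cells higher in 7 of 7 libraries (adjusted p = 0.0417, exact sign-flip permutation test). Tnr was 66.6 ± 23.2 CPM in Pvalb-like and 55.6 ± 21.7 CPM in Sst-like cells, a small difference that was nonetheless in 1 direction in every library (adjusted p = 0.0417), and 15.7 ± 6.36 CPM in Lamp5-like cells. Hapln4 was 177 ± 82.4 CPM in Pvalb-like, 82.7 ± 27.1 CPM in Lamp5-like, 41.0 ± 23.6 CPM in Sst-like and 19.3 ± 13.8 CPM in Vip-led cells. Its first step held in 6 of 7 libraries (adjusted p = 0.0577) and its second in 7 of 7 (adjusted p = 0.0417, exact sign-flip permutation test).

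Ncan had its lowest mean of the 4 subclasses in Pvalb-like cells. It averaged 46.5 ± 7.54 CPM there and 71.7 ± 12.3 CPM in Sst-like cells, and was lower in Pvalb-like cells in each of the 7 libraries (adjusted p = 0.0417, exact sign-flip permutation test). Ptprz1 averaged 84.1 ± 26.9 CPM in Vip-led cells and 33.9 ± 11.1 CPM in Sst-like cells, again with no exception among libraries (adjusted p = 0.0417), and the steps below, to 33.6 CPM in Lamp5-like and 23.9 CPM in Pvalb-like cells, did not pass (adjusted p = 0.542 and 0.328, exact sign-flip permutation test). Lamp5-like cells, neurogliaform and related interneurons, had 249 to 612 CPM of Hapln1, a mean of 422 ± 132 CPM, against 33.9 ± 23.5 CPM in Pvalb-like cells (adjusted p = 0.0417, 7 of 7 libraries). That level exceeded the 129 to 206 CPM of astrocytes in every library. Vcan in Lamp5-like cells was 7.55 CPM in MC DTA and 13.3 CPM in MC CTRL, against 35.4 to 39.9 CPM in 4 of the 5 PFC libraries and 0 UMIs in the 22 such cells of PFC DTA 1. That 0 allows up to 59.1 CPM, and the MC values rest on 3 UMIs in MC DTA and 9 in MC CTRL. Vcan in these cells had too few counts for the test between areas.

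The 6 excitatory subclasses differed less. None of 40 neighbouring pairs passed the sign-flip test (smallest adjusted p = 0.208, exact permutation test; 3 pairs at the smallest unadjusted p of 0.0156). The 3 pairs that ran in 1 direction in all 7 libraries were Ncan and Hapln4, which had 135 and 85.8 CPM on average in the subclass led by Rorb and Dkkl1 and 109 and 58.9 CPM in that led by Gadd45g and Gm13889, and Tnr, with 65.8 CPM in the subclass led by Gadd45g and Gm13889 and 49.4 CPM in L6 CT-like cells. Hapln1 stayed below 2.56 CPM in every library and excitatory subclass other than L5 NP-like cells, where it was 0 to 30.3 CPM on 18 UMIs.

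Motor cortex was compared with prefrontal cortex in each class by edgeR's quasi-likelihood test over all genes, with genotype as a term and 2 MC against 5 PFC libraries. Hapln4 was higher in MC neurons, both inhibitory and excitatory, Hapln1 was higher in MC Pvalb-like cells and Ptprz1 was lower in MC inhibitory neurons. These made 6 calls among the 86 pairs of gene and class that passed the filter on low counts, against a background over all genes of 2.23% called in inhibitory neurons, 5.5% in excitatory neurons, 3.17% in Pvalb-like and 2.83% in L6 CT-like cells. Elsewhere the background was 0.0107% in oligodendrocytes, 4.08% in L2-3 IT-like cells, 1.52%, 0.541% and 0.335% in the subclasses led by Gadd45g, Pou3f1 and Vip, and 1.21% over all cells together. The median log2 fold change over the 86 pairs was 0.08, and 24 pairs had an unadjusted p under 0.05.

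**Figure D3:**
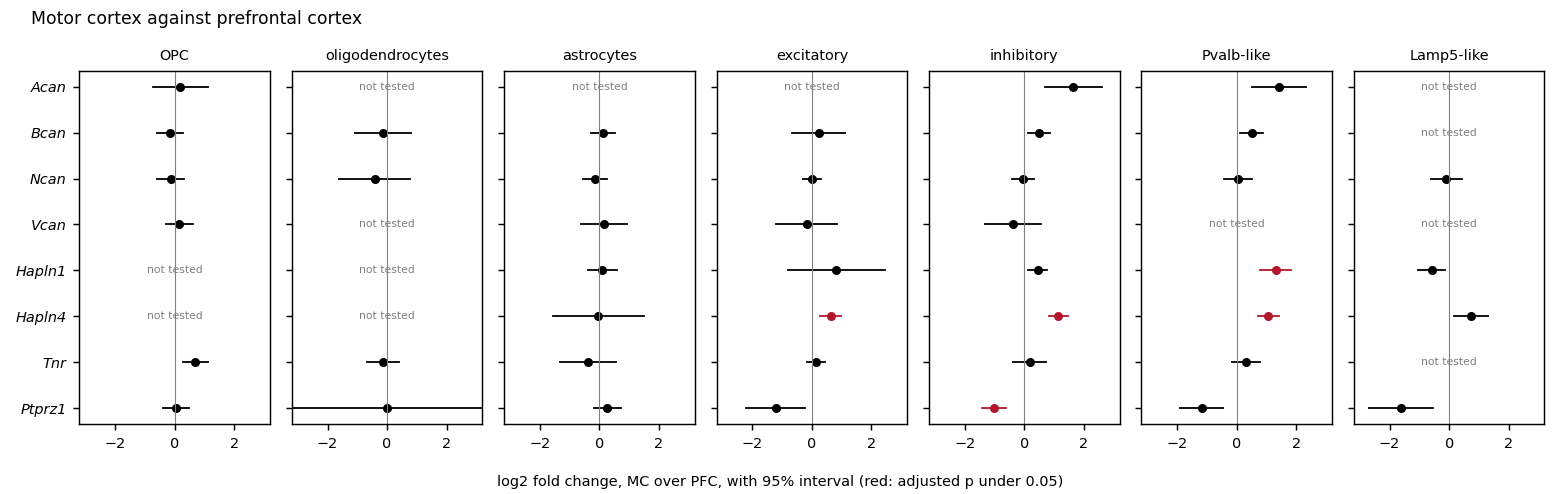
log2 fold change of MC over PFC for each gene in 7 classes and subclasses, from edgeR, with 95% intervals cut at the axis limits. Red marks an adjusted p under 0.05 and genes that did not pass the filter are given as not tested. Hapln4 lies to the right of 0 in excitatory, inhibitory and Pvalb-like cells, and Ptprz1 to the left in inhibitory neurons.

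In inhibitory neurons Hapln4 was 167 CPM in MC DTA and 135 CPM in MC CTRL, against 50.3, 73.3 and 67.5 CPM in PFC DTA and 73.2 and 67.1 CPM in PFC CTRL. Both MC libraries lay above all 5 PFC libraries, and the log2 fold change was 1.15 (SE 0.15, edgeR adjusted p = 0.000301). In Pvalb-like cells the values were 332 CPM in MC DTA and 244 CPM in MC CTRL, against 101, 146 and 156 CPM in PFC DTA and 139 and 119 CPM in PFC CTRL. There, too, the areas did not overlap (log2 fold change 1.06, SE 0.17, edgeR adjusted p = 0.000341). Pvalb-like cells were 32.2% of inhibitory cells in MC DTA and 26.5% in MC CTRL, within the 19.9% to 32.5% of the PFC libraries.

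The same direction was seen cell by cell and at both depths. Among Pvalb-like cells with at least 1000 UMIs, each thinned to 1000, 22.7% in MC DTA and 21.1% in MC CTRL had a Hapln4 UMI. The share was 6.98% to 14.5% in PFC, and 0% to 1.43% of such microglia had one in any library. Unthinned, the shares of Pvalb-like cells were 79.7% in MC DTA and 61.7% in MC CTRL, against 23.7% to 60.5% in PFC. Among the deep libraries the log2 ratio of MC to PFC in Pvalb-like cells was 1.22, and among the shallow ones 0.96, with no test.

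In excitatory neurons Hapln4 was 102 CPM in MC DTA and 88.3 CPM in MC CTRL, against 55.3, 59.6 and 85.1 CPM in PFC DTA and 58.5 and 53.7 CPM in PFC CTRL. The groups did not overlap, PFC DTA 3 being the PFC library nearest to MC (log2 fold change 0.63, SE 0.16, edgeR adjusted p = 0.0392). The subclass make-up of excitatory neurons also differed by area. L2-3 IT-like cells were 218 of 731 in MC DTA and 741 of 2606 in MC CTRL. They were 125 of 868, 181 of 1615 and 89 of 1590 in PFC DTA and 51 of 743 and 408 of 4343 in PFC CTRL. The part of this make-up in the Hapln4 difference was not tested. In L6 CT-like cells, the corticothalamic neurons of layer 6, Hapln4 was 67.6 CPM in MC DTA and 68.5 CPM in MC CTRL, against 31.0 to 47.8 CPM in PFC DTA and 41.8 and 48.0 CPM in PFC CTRL (log2 fold change 0.71, SE 0.18, edgeR adjusted p = 0.0337, and 0.123 with DESeq2). The subclass led by Pou3f1 and Cdh13 had the largest estimate, 1.40 (SE 0.40), on 252 CPM in MC DTA and 118 CPM in MC CTRL against 46.1 to 161 CPM in PFC DTA and 42.8 and 50.1 CPM in PFC CTRL, and did not pass (adjusted p = 0.171).

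**Figure D4:**
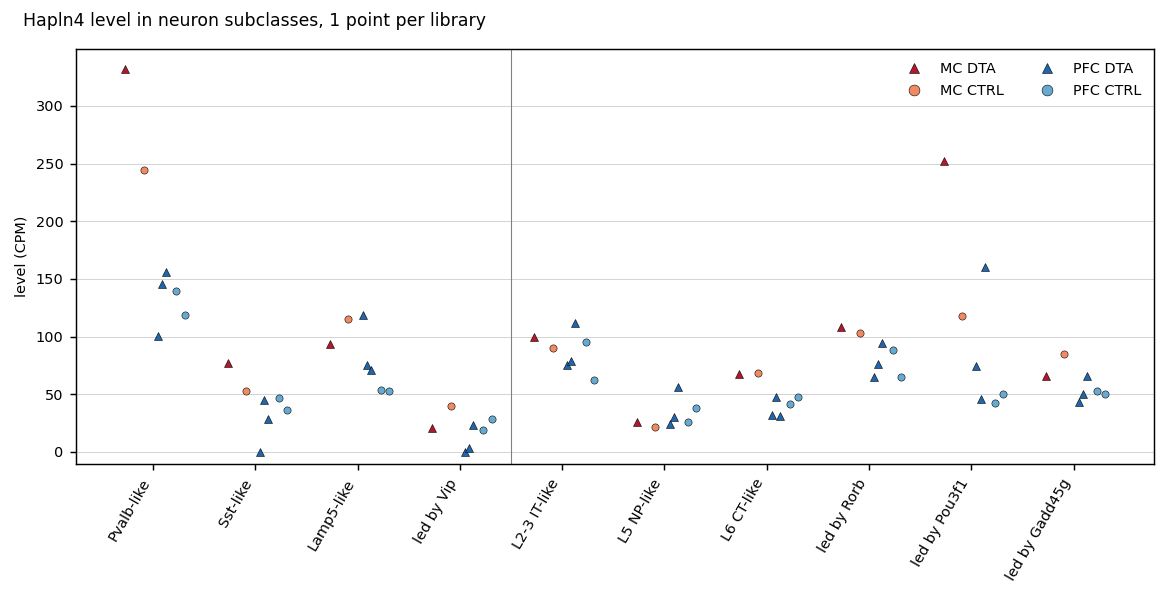
Hapln4 level in CPM in 4 inhibitory (left of the line) and 6 excitatory subclasses, with 1 point for each library. Triangles are DTA and circles CTRL libraries, in reds for MC and blues for PFC, CTRL in the paler shade. In Pvalb-like cells the MC libraries, at 332 and 244 CPM, stand above the highest PFC library at 156 CPM, while in L2-3 IT-like and L5 NP-like cells the areas overlap.

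Hapln1 in Pvalb-like cells was 66.7 CPM in MC DTA and 61.5 CPM in MC CTRL, against 0, 24.9 and 20.4 CPM in PFC DTA and 36.7 and 27.1 CPM in PFC CTRL. Both MC values exceeded the highest PFC value, and the log2 fold change was 1.30 (SE 0.26, edgeR adjusted p = 0.00402; 1.24 without PFC DTA 1, the library at 0). DESeq2 gave it no adjusted p. In Lamp5-like cells, where Hapln1 was highest, the estimate had the opposite sign, with 249 CPM in MC DTA and 390 CPM in MC CTRL against 276 to 510 CPM in PFC DTA and 612 and 514 CPM in PFC CTRL. That overlap left it short of the threshold (log2 fold change -0.59, SE 0.22, adjusted p = 0.370; 0.405% of genes called in this subclass).

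Ptprz1 in inhibitory neurons was 25.8 CPM in MC DTA and 24.9 CPM in MC CTRL, against 32.6, 57.0 and 43.2 CPM in PFC DTA and 46.1 and 62.7 CPM in PFC CTRL. Both MC libraries were below every PFC library (log2 fold change -1.02, SE 0.20, edgeR adjusted p = 0.00675), and the estimates in the 4 inhibitory subclasses were also negative, from -1.61 to -0.72, without passing. Since glia hold far more Ptprz1 than neurons, glial markers were summed in the same cells. The 6 precursor markers came to 36.8 CPM in MC DTA and 42.6 CPM in MC CTRL, against 38.5 to 69.1 CPM in PFC, and the 8 astrocyte markers to 237 and 286 CPM, against 202 to 285 CPM. The 9 oligodendrocyte markers came to 115 CPM in MC DTA and 483 CPM in MC CTRL, against 98.1 to 270 CPM in PFC. Vip-led cells, the inhibitory subclass with the highest mean of Ptprz1, were 27.8% of inhibitory cells in MC DTA and 23.3% in MC CTRL. In the PFC libraries they were 27.4% to 37.1%. The part of these markers and of this make-up in the difference was not tested. With equal numbers of cells from each library Ptprz1 in inhibitory neurons did not pass (log2 fold change -0.79, adjusted p = 0.181; over all 18 settings 8.9e-05 to 0.407).

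Acan in Pvalb-like cells, given above by library, did not overlap between areas but missed the threshold (log2 fold change 1.43, SE 0.45, edgeR adjusted p = 0.0755), and so did Acan in inhibitory neurons as a whole (1.64, SE 0.46, adjusted p = 0.0697). Tnr in precursors was 1069 CPM in MC DTA and 1107 CPM in MC CTRL, against 684, 783 and 543 CPM in PFC DTA and 783 and 635 CPM in PFC CTRL. The areas did not overlap for Tnr, but in a class with 0% of genes called its adjusted p was 0.999 (log2 fold change 0.69, SE 0.21, unadjusted p = 0.00206). Neither Bcan, Ncan, Vcan nor Ptprz1 in its highest class had an estimate beyond 0.16 in size, and each of their 95% intervals included 0.

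Leaving out either MC library leaves 1 library for that area, which is then assumed to vary like the PFC libraries. Without MC DTA none of the 8 genes was called in a main class or subclass, and without MC CTRL only Hapln4 in inhibitory neurons and Hapln4 and Hapln1 in Pvalb-like cells were. Without MC DTA the log2 fold change of Hapln4 was 0.97 in inhibitory and 0.93 in Pvalb-like cells (adjusted p = 0.190 and 0.216; across all settings from 1.17e-09 and 4.63e-07 up to these values). Hapln4 in excitatory neurons passed in 11 of 18 settings, with adjusted p from 0.00422 to 0.426, and in L6 CT-like cells in 12 of 18.

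The DTA genotype was examined in the PFC, where both genotypes have replicate libraries. None of the 79 tested pairs of gene and class passed the threshold with edgeR, and 2 had an unadjusted p under 0.05. Over all genes 0% were called in every class except Pvalb-like cells, where 0.0261% were, which is the background for the count of 0 among the 8 genes. DESeq2 likewise called none of them. The median log2 fold change over the 79 pairs was -0.07.

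**Figure D5:**
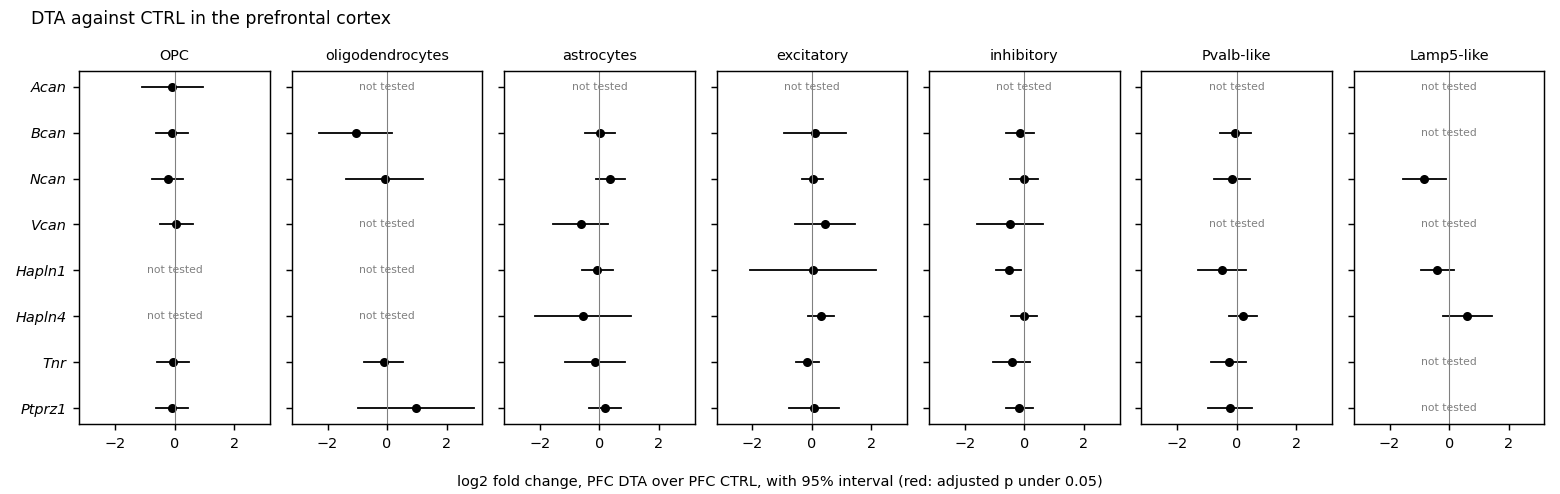
log2 fold change of PFC DTA over PFC CTRL for each gene in 7 classes and subclasses, from edgeR, with 95% intervals cut at the axis limits. Genes that did not pass the filter are given as not tested. No adjusted p is under 0.05, and every interval drawn spans 0 except those of Hapln1 in inhibitory neurons and Ncan in Lamp5-like cells, which lie to the left of it.

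In its highest class no gene passed the threshold between the 2 genotypes. In precursors Acan was 47.7, 26.0 and 20.8 CPM in PFC DTA and 34.2 and 27.1 CPM in PFC CTRL, and Vcan was 517, 402 and 395 CPM in PFC DTA and 528 and 328 CPM in PFC CTRL. Tnr was 684, 783 and 543 CPM in PFC DTA and 783 and 635 CPM in PFC CTRL, and Ptprz1 was 1979, 2226 and 1938 CPM in PFC DTA and 2543 and 1917 CPM in PFC CTRL. The genotypes overlapped in each case, and the 95% intervals of the log2 fold change ran from -1.10 to 0.94 for Acan, -0.49 to 0.61 for Vcan, -0.58 to 0.48 for Tnr and -0.62 to 0.43 for Ptprz1. Ncan in precursors averaged 268 ± 46.2 CPM in PFC DTA (SD, n = 3) and 332 ± 56.6 CPM in PFC CTRL (SD, n = 2), with an interval from -0.76 to 0.29.

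Bcan in astrocytes averaged 1338 ± 225 CPM in PFC DTA (SD, n = 3) and 1405 ± 7.43 CPM in PFC CTRL (SD, n = 2), with an interval from -0.50 to 0.51. Hapln1 in astrocytes averaged 153 ± 21.4 CPM in PFC DTA and 169 ± 39.9 CPM in PFC CTRL, with an interval from -0.60 to 0.46. Hapln4 was 50.3, 73.3 and 67.5 CPM in inhibitory neurons of PFC DTA and 73.2 and 67.1 CPM in those of PFC CTRL, and averaged 134 ± 29.3 CPM in PFC DTA and 129 ± 14.4 CPM in PFC CTRL in Pvalb-like cells. For Hapln4 the interval in inhibitory neurons was -0.45 to 0.42 and that in Pvalb-like cells -0.26 to 0.68, so differences within these bounds are not excluded by these libraries. Acan in Pvalb-like cells did not pass the filter in the PFC.

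The smallest p among the members in the PFC belonged to Hapln1 in inhibitory neurons, at 47.4, 60.9 and 54.3 CPM in PFC DTA and 77.9 and 87.1 CPM in PFC CTRL. The 3 DTA libraries lay below both CTRL libraries, but the difference did not pass (log2 fold change -0.52, SE 0.20, unadjusted p = 0.0182, edgeR adjusted p = 0.9998). Lamp5-like cells, its main source among these neurons, had 276, 510 and 400 CPM in PFC DTA and 612 and 514 CPM in PFC CTRL (log2 fold change -0.40, adjusted p = 0.999), also without overlap, and were 18.8%, 13.4% and 14.7% of inhibitory cells in PFC DTA and 13.2% and 16.6% in PFC CTRL. Ncan in Lamp5-like cells was 158, 66.6 and 70.8 CPM in PFC DTA and 173 and 131 CPM in PFC CTRL, which overlap. Its unadjusted p was the other one under 0.05, at 0.0263, and it did not pass (log2 fold change -0.83, SE 0.36, edgeR adjusted p = 0.999).

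Bcan in oligodendrocytes was 96.2, 23.2 and 79.0 CPM in PFC DTA and 160 and 129 CPM in PFC CTRL, without overlap (log2 fold change -1.06, SE 0.49, unadjusted p = 0.0785, edgeR adjusted p = 0.99999). It passed the threshold without the filter on low counts, and also without PFC CTRL 2, where PFC CTRL 1 alone stands for its group and is assumed to vary like the PFC DTA libraries. In newly formed oligodendrocytes of the PFC, tested after their levels had been seen, 4 of the 8 genes passed the filter and 0 of 4228 genes were called (0%). Vcan there was 201 ± 9.88 CPM in PFC DTA (SD, n = 3) and 282 ± 44.4 CPM in PFC CTRL (SD, n = 2), a log2 fold change of -0.44. Ptprz1 ran the other way, at 353 ± 83.2 CPM in PFC DTA and 277 ± 51.2 CPM in PFC CTRL (0.38). Bcan was 888 ± 146 CPM in PFC DTA and 1034 ± 18.9 CPM in PFC CTRL (-0.21), and Tnr 1417 ± 349 CPM in PFC DTA and 1459 ± 129 CPM in PFC CTRL. Each of the 4 had an edgeR adjusted p of 0.999.

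In the motor cortex each genotype had 1 library, so the difference has no replicate check and no test. MC DTA was in the deep set and MC CTRL in the shallow set, so genotype and depth cannot be told apart here. In the class where each gene was highest, the log2 ratio of MC DTA to MC CTRL was 0.92 for Acan, 0.14 for Bcan, 0.43 for Ncan, 0.25 for Vcan, 0.67 for Hapln1, 0.31 for Hapln4, -0.05 for Tnr and 0.31 for Ptprz1. The exact 95% intervals given for such ratios cover counting error only. Hapln1 had 206 CPM in MC DTA astrocytes and 129 CPM in MC CTRL astrocytes (interval of the log2 ratio 0.36 to 0.99), but 70.6 CPM in MC DTA and 121 CPM in MC CTRL inhibitory neurons (-1.05 to -0.52). Lamp5-like cells were 19.6% of inhibitory cells in MC DTA and 29.6% in MC CTRL, and their own Hapln1 was 249 CPM in MC DTA and 390 CPM in MC CTRL (-0.995 to -0.31). The difference of the genotype effect between MC and PFC, from an edgeR fit in which the lone MC libraries are assumed to vary like the PFC libraries, passed in 0 of 91 pairs, with 2 at an unadjusted p under 0.05; over all genes 0.00864% were called in L6 CT-like cells.

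The wider matrix was read from a list of 71 other genes, chosen like the members with earlier results of these data known, of which 69 were in the tables. Of the 48 that reached 20 CPM in a main class, 16 were highest in oligodendrocyte precursors, 6 each in excitatory neurons, inhibitory neurons and endothelial cells, 5 each in oligodendrocytes and microglia and 4 in astrocytes. The shares of all genes highest in each class were not counted, so these numbers cannot be read as a trait of matrix genes. In the PFC none passed between DTA and CTRL in any class, against 0% of all genes in excitatory neurons. There Mmp16, a membrane-bound metalloproteinase, averaged 42.4 ± 7.54 CPM in PFC DTA and 57.2 ± 0.735 CPM in PFC CTRL, and Plat, tissue plasminogen activator, 22.1 ± 4.96 CPM in PFC DTA and 16.9 ± 1.87 CPM in PFC CTRL. These 2 had the smallest unadjusted p by edgeR, 0.0433 and 0.0502, and an adjusted p of 0.9999 each.

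Between areas, 3 of the 55 listed genes tested in excitatory neurons were higher and 3 lower in MC, while 5.5% of all genes in these neurons were called in either direction. Ptn, a secreted growth factor that binds Ptprz1 and chondroitin sulfate, was 878 ± 49.1 CPM in MC (SD, n = 2) and 382 ± 81.4 CPM in PFC (SD, n = 5), a log2 fold change of 1.24 (SE 0.18, edgeR adjusted p = 0.00226), and it was also higher in 4 of the excitatory subclasses. Sema3a, a guidance molecule held in nets, and Rtn4rl1, a receptor of chondroitin sulfate, were higher as well (0.85 and 0.64). Cd44, a hyaluronan receptor, Tmem2, a hyaluronidase, and Dcn, a small proteoglycan, were lower (-1.97, -0.83 and -2.54), at levels of at most 12.4 CPM in any library. In inhibitory neurons, where 2.23% of all genes were called, 1 of 47 was higher, Cemip, which takes part in hyaluronan breakdown (0.73, adjusted p = 0.0280), and 1 lower, Timp2, an inhibitor of metalloproteinases (-0.67, adjusted p = 0.0182). Timp2 was lower in L6 CT-like cells too, at 40.8 ± 7.88 CPM in MC and 107 ± 17.2 CPM in PFC (-1.33, adjusted p = 0.000288), and in Pvalb-like cells (-0.71, adjusted p = 0.0406). There Ptprd, a receptor phosphatase, was higher (0.63, adjusted p = 0.0321), and these were 2 of 27 listed genes, against 3.17% of all genes called. Among the excitatory subclasses, L2-3 IT-like cells had lower Itga8, Mmp16, Chst11 and Cspg5 in MC (-1.43, -0.68, -0.85 and -0.67). There 35 listed genes were tested and 4.08% of all genes were called. The subclass led by Gadd45g and Gm13889 had higher Crtac1 (1.12), with 38 listed genes tested and 1.52% of all genes called. That led by Rorb and Dkkl1 had lower Cd44 and Ptprf (-3.50 and -0.80), with 45 listed genes tested and 2.56% of all genes called. The list's median log2 fold change was -0.03 in excitatory and -0.09 in inhibitory neurons, beside -0.01 and 0.00 over all genes tested.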

How the data were processed

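Single-cell RNA was measured in 7 libraries. The authors deposited 1 table of UMI counts per gene and cell for each library; per the submitters' processing notes, Cell Ranger 3.0.2, Seurat and the mm10 build were used. Every deposited cell had over 500 genes and at most 10% mitochondrial counts. The members and gene lists were chosen with earlier results of these data known.

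Doublets called by scrublet were removed (23 to 443 per library; in PFC DTA 3, where the automatic call found 0, the 295 highest scores were taken). Cells were clustered with scanpy 1.11.5 and leidenalg 0.10.2 on 2000 variable genes, 30 components and 20 neighbours at resolution 1.0, leaving out the 8 genes, and clusters were named from marker lists. Counts were summed per library and class. Classes with at least 30 cells in every library, and neuron subclasses with at least 20, were tested.

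Genotype and area were tested with edgeR 4.0.16 (quasi-likelihood, robust, TMM, filterByExpr with a minimum count of 10, Benjamini-Hochberg adjustment over all genes of a class, threshold 0.05) in R 4.3.3, with DESeq2 1.42.0 as an alternative. The area fit had a genotype term. The order of classes was tested on log2(CPM + 1) by an exact sign-flip permutation test over 7 libraries (scipy 1.17.1). MC DTA and MC CTRL were compared with exact 95% intervals that cover counting error only, as does the limit of 3 counts given for a count of 0. Thinned shares were taken over cells with at least 1000 UMIs, each thinned to 1000, with exact 95% intervals.

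The text names all 8 genes in every tested class, the 3 genes with the most similar class profile for each (among genes with at least 20 CPM in a class), and listed matrix genes past the threshold, up to 10 per class, or the 2 with the smallest p where none passed. Some genes of similar profile are not reported here. The genes were located in GENCODE M21. Of the 8 genes, 7 had a RefSeq promoter window; Hapln4 had none. The sources used here do not say whether each library is 1 mouse. The tests were tried on simulated data.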

Additional observations from a re-analysis of the deposited data

How the results depend on the processing

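In the PFC, 0 of the 8 genes were called in a main class, and 1 (Bcan in oligodendrocytes) without the filter on low counts; leaving out each library gave 0 to 1 in main classes and 0 to 1 in subclasses (Bcan without PFC CTRL 2, Hapln4 in the Pou3f1-led subclass without PFC DTA 2). Between areas, the 3 calls in main classes became 0 to 3 and the 3 in subclasses 0 to 5 when each library was left out, and the subclasses gave 6 with no filter on low counts. A term for depth kept all 6 area calls and added Hapln4 in the Pou3f1-led subclass (log2 fold change 1.56, adjusted p = 0.0409). That term, the second clustering of inhibitory neurons and the test of newly formed oligodendrocytes were chosen after seeing the data. Of 48 and 24 neighbouring pairs of classes, 18 and 9 passed; with means over cells 0 and 0 passed, though 15 and 6 pairs still ran in 1 direction in every library, and with the 5 PFC libraries, where p cannot go below 0.0625, 0 and 0 passed.

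The uncalled fold changes near 0 changed sign. In PFC, Acan in precursors was 0.10 with doublets kept, Bcan in astrocytes -0.018 and Hapln4 in inhibitory neurons 0.079 with equal cells per library. Leaving out each library gave -0.29 to 0.11 for Acan, -0.28 to 0.46 for Vcan, -0.21 to 0.14 for Tnr and -0.29 to 0.16 for Ptprz1 in precursors, -0.13 to 0.12 for Bcan and -0.34 to 0.29 for Hapln1 in astrocytes, and -0.14 to 0.077 for Hapln4 in inhibitory neurons. Between areas, Ncan in precursors was 0.089 with equal cells, and leaving out each library gave -0.49 to 0.18 for Ncan, -0.38 to 0.62 for Acan and -0.17 to 0.23 for Ptprz1 in precursors and -0.33 to 0.43 for Hapln1 in astrocytes. The cause was not tested.

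PFC libraries 1 and 2 of the genotypes share numbers, but the correlation of their deviations ran from -0.19 to 0.24 over classes, so the numbers were not taken as pairs. With the replicate block, 1 of the 8 genes was called in a main class (Bcan in oligodendrocytes), and the uncalled log2 fold changes were 0.20 for Acan and 0.11 for Tnr in precursors and -0.13 for Bcan and 0.086 for Hapln1 in astrocytes. Low counts limit Acan most, and 3 PFC DTA against 2 PFC CTRL libraries leave intervals of about 0.5 on the log2 scale to either side for the other genes in their highest class.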

Other observations

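A cluster of 139 cells that matched the neuroblast or progenitor markers, with 3 to 45 cells per library, was too small for the comparisons above. Its Ptprz1 level ran from 669 to 1855 CPM over the 7 libraries, with a median of 1212 CPM. Tnr ran from 130 to 871 CPM, Bcan from 130 to 866 CPM, Vcan from 55.8 to 385 CPM and Ncan from 103 to 224 CPM. The lowest library for Ptprz1, Tnr, Bcan and Vcan was PFC DTA 1, with 34 cells. No test was made on these cells.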
